A study of Homo sapiens with 8 samples.

Results

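ELN, which encodes elastin, was followed with 9 genes whose products carry it into elastic fibres, in 8 RNA sequencing libraries of mesenchymal stromal cells. The others were the microfibril genes FBN1, FBN2, MFAP2 and MFAP5, the fibulin genes FBLN1, FBLN5 and EFEMP2, and the crosslinking enzyme genes LOX and LOXL1. These 10 genes, of 23354 in the deposited table, were taken by name, with earlier results of these data known. The set was chosen by the measured values of ELN, which was far higher in the cells frozen in osmolyte solutions than in the other cells. Its levels are therefore a description and carry no test. The lower level of FBN1 in osmolyte-frozen against DMSO-frozen cells was also known when the genes were chosen, and that difference is likewise given without a test. So are the differences of FBN1 in osmolyte-frozen and in DMSO-frozen cells against fresh cells, which use those same frozen libraries. All 10 genes passed the filter on low counts, which kept 15924 genes.

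Elastic fibres give skin, lung and large arteries their recoil. Cells secrete soluble tropoelastin, which is laid onto a scaffold of fibrillin microfibrils with the help of fibulins and is then crosslinked by lysyl oxidases into an insoluble polymer. Stromal cells and fibroblasts make many of the scaffold proteins throughout life, whereas elastin itself is made mostly during development and growth.

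The cells were mesenchymal stromal cells derived from the human embryonic stem cell line H9, which is long established, and the study compared ways of freezing them. The fresh group held 3 libraries from cells that were never frozen: 1 taken at 0 h, 1 after 1 h in medium and 1 after 1 h in DMSO, the usual cryoprotectant. The DMSO-frozen group held 2 libraries from cells frozen at 1 °C/min and thawed, after 0 h or 1 h in DMSO. The osmolyte-frozen group held 3 libraries from cells frozen at 3 °C/min and thawed, each in a different solution, labelled SMC (2 h hold), SGC (1 h) and SGI (1 h). The solution and the cooling rate changed together and cannot be told apart, and no library came from unfrozen cells held in an osmolyte solution. Each condition had 1 library, and nothing in the labels says that the libraries came from separate cultures, so the p-values measure only the spread between these libraries. All cells came from 1 cell line.

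Levels are given as CPM, counts scaled by edgeR to a common library size. CPM per kilobase, divided by the gene length deposited with the counts, was used wherever genes were compared with each other. The counts summed to between 41198716 and 51166666 per library, and the 10 genes held 0.514% to 0.708% of them. In bulk RNA, fewer cells of a type and less RNA per cell cannot be told apart. Genes used as markers of stromal cells were detected in every library, with 0 of 8 at 0, while 7 haematopoietic markers summed to 2.01 to 2.84 CPM. CD34 held most of that sum, averaging 1.85, 1.71 and 2.13 CPM in fresh, DMSO-frozen and osmolyte-frozen cells. The nuclear RNAs MALAT1 and NEAT1 together took 0.846% to 0.948% of counts in osmolyte-frozen cells, 0.393% to 0.452% in DMSO-frozen cells and 0.472% to 0.567% in fresh cells. Their part in the results that follow was not tested.

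FBLN5 and MFAP2 were the only pair among the 9 partners of ELN that were called higher in each of the 3 comparisons, so the sequences just upstream of their start sites are shown. Each is the 250 bases before the outermost start listed by RefSeq, on the GRCh38.p14 build. FBLN5 lies on the minus strand of chromosome 14 and its stretch is chr14:91947695-91947944. MFAP2 lies on the minus strand of chromosome 1 and its stretch is chr1:16981584-16981833. Both are written 5′ to 3′. Capitals mark matches, on either strand, to the GC box GGGCGG, the AP-1 element TGANTCA, the TATA box TATAAA and the SMAD box CAGAC. The E box CANNTG was also searched, and is not in capitals.
FBLN5: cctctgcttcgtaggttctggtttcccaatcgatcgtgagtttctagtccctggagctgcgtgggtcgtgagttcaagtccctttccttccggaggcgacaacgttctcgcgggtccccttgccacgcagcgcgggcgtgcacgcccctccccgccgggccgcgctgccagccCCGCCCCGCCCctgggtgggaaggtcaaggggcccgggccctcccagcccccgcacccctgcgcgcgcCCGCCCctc
MFAP2: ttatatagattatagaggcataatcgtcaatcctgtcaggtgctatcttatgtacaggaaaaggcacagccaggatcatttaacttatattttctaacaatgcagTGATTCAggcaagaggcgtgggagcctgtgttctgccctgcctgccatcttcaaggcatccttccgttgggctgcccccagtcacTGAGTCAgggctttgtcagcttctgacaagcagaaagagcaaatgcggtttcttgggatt
The stretch of FBLN5 was 71.6% G or C and held 3 GC boxes, of which the first pair overlap, and no AP-1 element. The stretch of MFAP2 was 46.8% G or C and held 2 AP-1 elements, 2 E boxes and no GC box. No E box was found for FBLN5, and neither stretch held a TATA box or a SMAD box. Over 34788 distinct stretches of this length, the median content of G or C was 58%, and 42.6% held a GC box, 6.59% an AP-1 element, 10.8% a TATA box, 61.8% an E box and 38% a SMAD box. A match is a description of letters, not a binding site. Of the 10 genes, 8 had an entry in the table of promoters used here, and ELN and MFAP5 had none.

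ELN was very low in fresh cells, somewhat higher in DMSO-frozen cells and far higher in osmolyte-frozen cells. In hg19 the gene lies on chromosome 7 from 73442427 to 73484236. Fresh cells gave 1.03 CPM at 0 h, 0.910 CPM after 1 h in DMSO and 1.26 CPM after 1 h in medium, from counts of 46, 40 and 52. The DMSO-frozen cells gave 3.12 CPM after the 0 h hold and 3.94 CPM after the 1 h hold, from counts of 158 and 180. The osmolyte-frozen cells gave 43.0 CPM in SMC, 41.6 CPM in SGC and 31.0 CPM in SGI, from counts of 1758, 1864 and 1428. No library of one group reached into the range of another. The means were 1.07 ± 0.179 CPM (SD, n = 3) in fresh cells, 3.53 ± 0.577 CPM (SD, n = 2) in DMSO-frozen cells and 38.5 ± 6.56 CPM (SD, n = 3) in osmolyte-frozen cells.

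In order of level, the 3 fresh libraries came lowest and their 95% counting intervals overlapped, from 0.556 to 1.41 CPM for the lowest and from 0.825 to 1.85 CPM for the highest. The DMSO-frozen pair came next, with overlapping intervals of 2.47 to 3.89 CPM and 3.16 to 4.84 CPM. SGI followed at 28.8 to 33.3 CPM, below the intervals of SGC at 39.0 to 44.3 CPM and SMC at 40.2 to 45.9 CPM, which overlapped each other. These are exact Poisson intervals and cover counting error only. By the ratio of fitted means, ELN was 10.9-fold higher in osmolyte-frozen than in DMSO-frozen cells and 36.1-fold higher than in fresh cells.

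**Figure D1:**
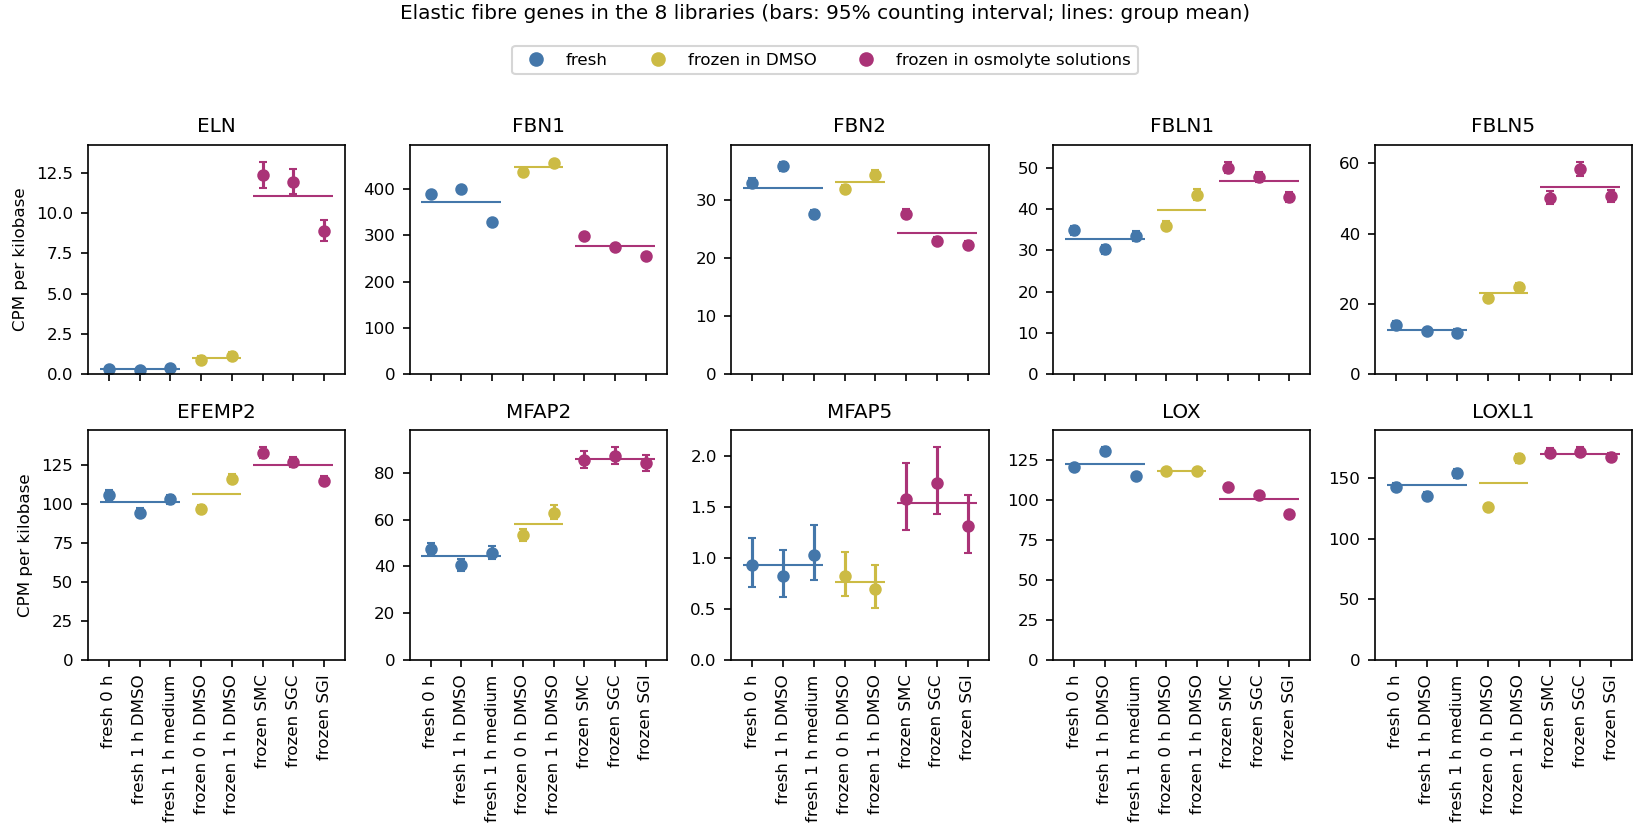
Level of each gene in the 8 libraries in CPM per kilobase, on a separate linear axis for each gene that starts at 0. Points are single libraries, bars their 95% counting intervals and lines the group means; ELN stands between 0.261 and 0.362 in the fresh cells and between 8.89 and 12.3 in the osmolyte-frozen cells, while FBN1, the most abundant of the genes per length, is lowest in the osmolyte-frozen cells.

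The fibrillin genes were lower in osmolyte-frozen cells. Fibrillin-1 and fibrillin-2, the products of FBN1 and FBN2, form the core of the microfibril onto which elastin is laid. FBN1 (chromosome 15, 48700503 to 48937985 in hg19) stood at 4540, 4661 and 3845 CPM in fresh cells at 0 h, with 1 h in DMSO and with 1 h in medium. It stood at 5109 and 5329 CPM in DMSO-frozen cells after 0 h and 1 h, and at 3484, 3216 and 2977 CPM in SMC, SGC and SGI. All 3 osmolyte libraries were below all 5 others. FBN1 was 1.62-fold lower than in DMSO-frozen cells (log2 fold change −0.69, SE 0.092). FBN1 was 1.35-fold lower than in fresh cells (log2 fold change −0.43, SE 0.083). That comparison uses the same 3 osmolyte-frozen libraries, so it is also given without a test.

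FBN2 (chromosome 5, 127593601 to 127873735) was less abundant, at 353, 383 and 295 CPM in fresh cells, 342 and 368 CPM in DMSO-frozen cells after 0 h and 1 h, and 296, 246 and 238 CPM in SMC, SGC and SGI. The fresh library held in medium lay just below the SMC library, so those groups overlapped. FBN2 fell 1.36-fold against DMSO-frozen cells (edgeR adjusted p = 0.00584) and 1.32-fold against fresh cells (edgeR adjusted p = 0.00409). Against DMSO-frozen cells the call was lost without the DMSO-frozen library held for 1 h, at an edgeR adjusted p of 0.0642. The ratio of FBN1 to FBN2 per kilobase was 10.8 to 12.0 in osmolyte-frozen cells and 11.2 to 12.0 in fresh cells, which overlap, and 13.3 to 13.7 in DMSO-frozen cells.

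The microfibril-associated glycoprotein genes were higher in osmolyte-frozen cells, opposite to the fibrillins. MFAP2 and MFAP5 encode small proteins that bind fibrillin on the microfibril. MFAP2 (chromosome 1, 17300999 to 17308081) stood at 55.5, 47.6 and 53.7 CPM in fresh cells, 62.8 and 74.0 CPM in DMSO-frozen cells after 0 h and 1 h, and 101, 103 and 98.9 CPM in SMC, SGC and SGI. The 3 groups were separate and ordered, with a spread among the osmolyte libraries of 1.83 CPM (SD, n = 3). MFAP2 rose 1.47-fold against DMSO-frozen cells (log2 fold change 0.56, SE 0.090, edgeR adjusted p = 0.000176) and 1.93-fold against fresh cells (log2 fold change 0.95, SE 0.081, edgeR adjusted p = 3.86e-08).

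MFAP5 (chromosome 12, 8798540 to 8815433) was scarce, at 2.69, 2.37 and 2.96 CPM in fresh cells, 2.37 and 2.01 CPM in DMSO-frozen cells after 0 h and 1 h, and 4.55, 4.998 and 3.78 CPM in SMC, SGC and SGI. Its counts ran from 92 to 224 per library. Every osmolyte library was above every other library. MFAP5 rose 2.02-fold against DMSO-frozen cells (edgeR adjusted p = 0.000926) and 1.66-fold against fresh cells (edgeR adjusted p = 0.00243).

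Among the fibulins, FBLN5 showed the widest range. Its product binds tropoelastin and lysyl oxidase-like enzymes and is needed for elastic fibres to form in the mouse. FBLN5 (chromosome 14, 92335755 to 92414046) stood at 37.0, 32.3 and 31.2 CPM in fresh cells, 57.4 and 65.0 CPM in DMSO-frozen cells after 0 h and 1 h, and 132, 154 and 134 CPM in SMC, SGC and SGI. The 3 groups did not overlap and had the order seen for ELN. FBLN5 rose 2.29-fold against DMSO-frozen cells (log2 fold change 1.19, SE 0.098, edgeR adjusted p = 1.14e-07) and 4.18-fold against fresh cells (log2 fold change 2.06, SE 0.088, edgeR adjusted p = 4.31e-12).

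EFEMP2 encodes fibulin-4, which brings lysyl oxidase to tropoelastin. EFEMP2 (chromosome 11, 65633912 to 65640405) stood at 219, 196 and 213 CPM in fresh cells, 201 and 241 CPM in DMSO-frozen cells after 0 h and 1 h, and 275, 263 and 238 CPM in SMC, SGC and SGI. The SGI library lay below the DMSO-frozen library held for 1 h. EFEMP2 rose 1.24-fold against fresh cells (edgeR adjusted p = 0.00729). Against DMSO-frozen cells its log2 fold change of 0.23 did not pass (edgeR adjusted p = 0.0767), although it did without the DMSO-frozen library held for 1 h (edgeR adjusted p = 0.0372).

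FBLN1, a fibulin of elastic fibre cores and basement membranes (chromosome 22, 45898719 to 45997014), stood at 169, 147 and 162 CPM in fresh cells and 175 and 211 CPM in DMSO-frozen cells after 0 h and 1 h. It stood at 243, 232 and 208 CPM in SMC, SGC and SGI. SGI again lay just below the DMSO-frozen library held for 1 h. FBLN1 rose 1.43-fold against fresh cells (edgeR adjusted p = 0.000136). Its log2 fold change against DMSO-frozen cells was 0.24 and did not pass (edgeR adjusted p = 0.0758). That test passed without the SGI library (edgeR adjusted p = 0.0496) and without the DMSO-frozen library held for 1 h (edgeR adjusted p = 0.0357).

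LOX and LOXL1, the crosslinking enzymes, had the smallest folds of the 10 genes against fresh cells, and in opposite directions. LOX, the lysyl oxidase that starts the crosslinks of elastin and collagen (chromosome 5, 121398890 to 121414055), stood at 651, 706 and 621 CPM in fresh cells, 639 and 638 CPM in DMSO-frozen cells after 0 h and 1 h, and 583, 555 and 492 CPM in SMC, SGC and SGI. The osmolyte libraries were below all others. LOX fell 1.21-fold against fresh cells (edgeR adjusted p = 0.00835), a call lost without the fresh library held in DMSO (edgeR adjusted p = 0.0560) or without SGI (edgeR adjusted p = 0.0561). Against DMSO-frozen cells its log2 fold change was −0.23 (SE 0.087, edgeR adjusted p = 0.0524), and the test passed without SMC (edgeR adjusted p = 0.0170), without the fresh library at 0 h (edgeR adjusted p = 0.0418) or without the fresh library held in medium (edgeR adjusted p = 0.0325).

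LOXL1, the lysyl oxidase-like enzyme tied to elastic fibres (chromosome 15, 74218789 to 74244478), stood at 337, 319 and 363 CPM in fresh cells, 297 and 392 CPM in DMSO-frozen cells after 0 h and 1 h, and 403, 406 and 395 CPM in SMC, SGC and SGI. The DMSO-frozen library held for 1 h lay just below SGI, while the one taken at 0 h was the lowest of all 8. Against DMSO-frozen cells the log2 fold change of 0.22 did not pass (edgeR adjusted p = 0.109), and it passed without the DMSO-frozen library held for 1 h (edgeR adjusted p = 0.0122). LOXL1 rose 1.18-fold against fresh cells (edgeR adjusted p = 0.0397), a call lost without any 1 of 5 libraries, at edgeR adjusted p-values of 0.0758 without SGI, 0.103 without SMC, 0.121 without fresh 0 h, 0.124 without SGC and 0.147 without fresh cells held in DMSO. LOX stood at 0.544 to 0.633 of LOXL1 per kilobase in osmolyte-frozen cells, 0.711 to 0.939 in DMSO-frozen cells and 0.747 to 0.967 in fresh cells.

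Set side by side, 3 of the 8 genes other than ELN and FBN1 rose in osmolyte-frozen against DMSO-frozen cells (FBLN5, MFAP2 and MFAP5), 1 fell (FBN2) and 4 did not pass. Of all genes tested, 13.1% were called higher and 16.2% lower. With library totals alone in place of the TMM scaling, 6 of the 8 were called higher, FBLN1, EFEMP2 and LOXL1 being added, and the share of all calls that were higher went from 44.8% to 56.4%. The libraries of the 2 groups did not overlap for 6 of the 8, and for 56.2% of all genes tested, so separate libraries were common. The median log2 fold change of the 8 was 0.23, against 0.04 over all genes tested.

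Against fresh cells, 6 of the genes other than ELN and FBN1 rose in osmolyte-frozen cells, and FBN2 and LOX fell. The background shares were 18.6% higher and 20.7% lower among all genes tested. The 6 were FBLN1, FBLN5, EFEMP2, MFAP2, MFAP5 and LOXL1. FBN1 was also lower, without a test. Leaving out ELN and FBN1, the libraries did not overlap for any of the genes but FBN2, and for 49.1% of all genes tested. The median log2 fold change of the 9 genes other than ELN was 0.31, against 0.02 over all genes tested. That median counts FBN1 and is a description. Both comparisons use the same 3 osmolyte-frozen libraries.

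Freezing in DMSO went with smaller differences. In DMSO-frozen cells ELN stood 3.30-fold above its level in fresh cells (log2 fold change 1.72, SE 0.20), both of its DMSO-frozen libraries lying above all 3 fresh ones. These 5 libraries were the reference against which ELN had been selected, so the difference is given without a test. FBLN5 rose 1.83-fold (log2 fold change 0.87, SE 0.095, edgeR adjusted p = 2.86e-05) and MFAP2 rose 1.31-fold (log2 fold change 0.39, SE 0.089, edgeR adjusted p = 0.0256). The call of MFAP2 was lost without the DMSO-frozen library held for 1 h (edgeR adjusted p = 0.388) or without the fresh library held in DMSO (edgeR adjusted p = 0.108). Of the 8 genes other than ELN and FBN1, 2 rose and 0 fell. With DESeq2 or limma, and at an unadjusted edgeR p under 0.05, 0 were lower. Among all genes tested 1.22% were called higher and 0.603% lower. The others had log2 fold changes from −0.28 for MFAP5 (edgeR adjusted p = 0.599) to 0.28 for FBLN1 (edgeR adjusted p = 0.198), with LOXL1 at 0.02 (edgeR adjusted p = 0.956). FBN1 stood at 0.26, given without a test because its DMSO-frozen libraries belong to the difference known beforehand. Leaving out ELN and FBN1, the libraries did not overlap for FBLN1 and the 2 called, and for 31.2% of all genes tested.

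**Figure D2:**
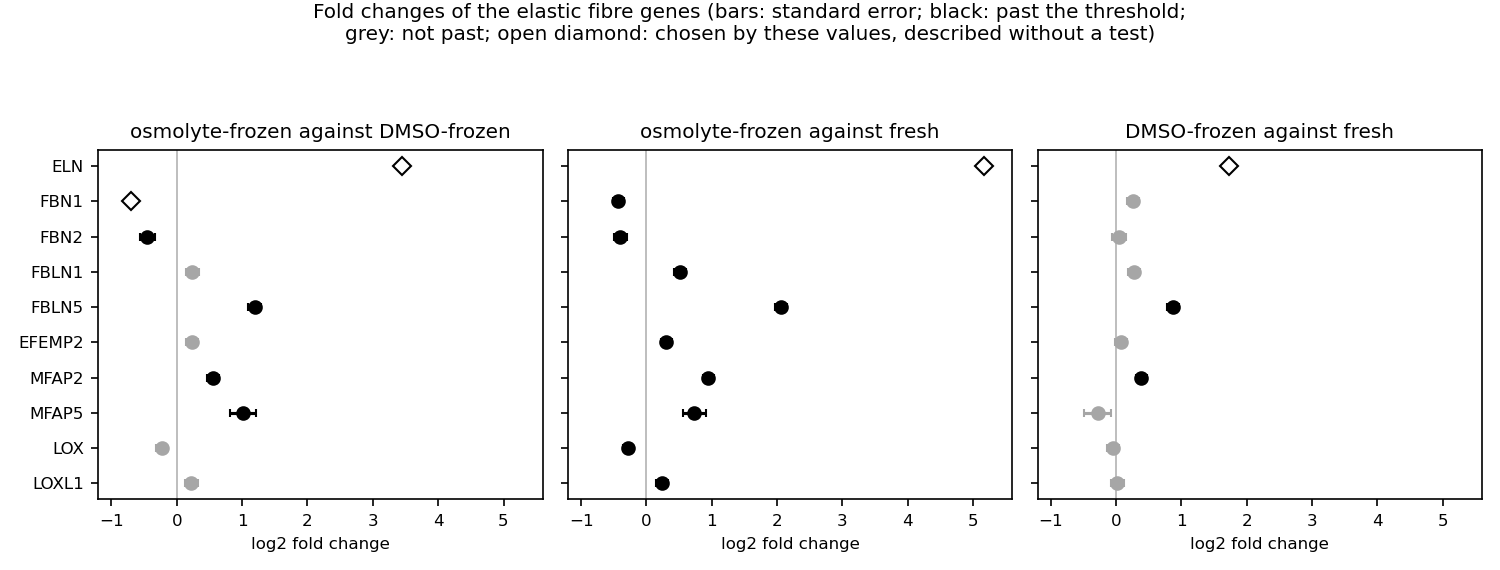
Log2 fold change of each of the 10 genes in the 3 comparisons, with its standard error. Black points passed the threshold and grey points did not. The open diamonds show ELN, and FBN1 in osmolyte-frozen against DMSO-frozen cells, which are described without a test. FBN1 is drawn in black in osmolyte-frozen against fresh cells and in grey in DMSO-frozen against fresh cells, but both are also descriptions. ELN stands at 3.45 and 5.17 in the osmolyte comparisons, apart from FBLN5, next highest at 1.19 and 2.06, with the fibrillins to the left of 0.

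The standing of ELN among its partners changed with the group. Per kilobase, the mean in fresh cells was 372 CPM for FBN1, 144 for LOXL1, 122 for LOX, 101 for EFEMP2, 44.5 for MFAP2, 32.8 for FBLN1, 32.1 for FBN2, 12.7 for FBLN5 and 0.927 for MFAP5. ELN came last at 0.306 CPM per kilobase. In DMSO-frozen cells ELN, at 1.01 CPM per kilobase, lay above MFAP5 at 0.760. In osmolyte-frozen cells ELN reached 11.04 CPM per kilobase, still below FBN2 at 24.2 and every partner gene but MFAP5, at 1.54.

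ELN made up 0.0297% to 0.0441% of the summed levels of the 10 genes per kilobase in fresh cells, 0.0969% to 0.110% in DMSO-frozen cells and 1.06% to 1.32% in osmolyte-frozen cells. FBN1 made up 40.1% to 45.3%, 44.5% to 47.3% and 30.3% to 31.8% in the same order of groups. The sum over the 10 genes was 821 to 888 CPM per kilobase in fresh cells, 923 to 1024 in DMSO-frozen cells and 839 to 938 in osmolyte-frozen cells, the last range overlapping both others. The shares of ELN and FBN1 in osmolyte-frozen cells overlapped neither.

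Taken against ELN, FBN1 was 908 to 1527 times as high per kilobase in fresh cells, 404 to 488 times in DMSO-frozen cells and 23.1 to 28.7 times in osmolyte-frozen cells. The crosslinking enzyme LOX was 318 to 501 times as high as ELN in fresh cells, 105 to 132 times in DMSO-frozen cells and 8.62 to 10.3 times in osmolyte-frozen cells. FBLN5, which moved in the direction of ELN, went from 32.8 to 47.6 times in fresh cells through 21.9 to 24.4 times to 4.08 to 5.71 times. MFAP5 was 2.84 to 3.16 times ELN in fresh cells, 0.618 to 0.919 times in DMSO-frozen cells and 0.128 to 0.147 times in osmolyte-frozen cells. For each of the 9 partners the 3 ranges were separate and fell in that order, a pattern set by the values of ELN that chose it.

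**Figure D3:**
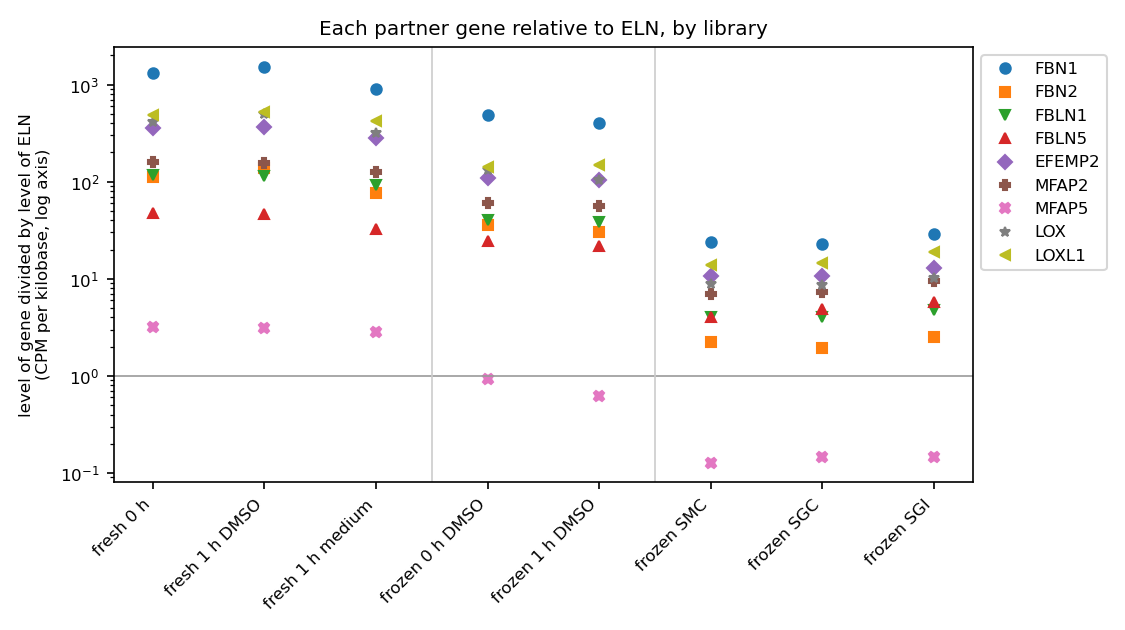
Level of each partner gene divided by that of ELN in the same library, both in CPM per kilobase, on a log axis. FBN1 lies at 908 to 1527 in the fresh libraries and at 23.1 to 28.7 in the osmolyte-frozen libraries, and MFAP5 passes below 1, the grey line, in all frozen libraries.

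Other ratios between partners did not use ELN. EFEMP2 stood at 7.55 to 8.70 times FBLN5 per kilobase in fresh cells, 4.46 to 4.72 times in DMSO-frozen cells and 2.17 to 2.65 times in osmolyte-frozen cells, and these 3 ranges were separate. FBN1 stood at 7.18 to 9.84 times MFAP2 in fresh cells, 7.23 to 8.17 times in DMSO-frozen cells and 3.02 to 3.48 times in osmolyte-frozen cells. The ratio of MFAP2 to MFAP5 was 44.5 to 50.7 in fresh cells, 50.4 to 64.3 in osmolyte-frozen cells and 65.1 to 90.3 in DMSO-frozen cells, with the range in osmolyte-frozen cells crossing that in fresh cells.

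Libraries frozen after a matched hold of 1 h set SGC and SGI against DMSO with 1 library each, so these ratios have no replicate check and their intervals cover counting error only. ELN was 10.6 times as high in SGC as in DMSO (8.50 to 13.3) and 7.87 times in SGI (6.32 to 9.91). FBLN5 was 2.37 times as high in SGC (2.23 to 2.52) and 2.05 times in SGI (1.93 to 2.19). MFAP5 was 2.48 times as high in SGC (1.75 to 3.58) and 1.88 times in SGI (1.30 to 2.74). MFAP2 stood at 1.39 and 1.34 times its level in DMSO. The fibrillins were lower in both, FBN1 at 0.604 and 0.559 and FBN2 at 0.668 and 0.648 of the level in DMSO. FBLN1 and EFEMP2 were 1.10 and 1.09 times as high in SGC, while in SGI their intervals of 0.946 to 1.02 and 0.952 to 1.03 held 1. LOXL1 stood at 1.03 in SGC and 1.01 in SGI. The median absolute log2 ratio over all genes tested was 0.28 for SGC and 0.27 for SGI.

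**Figure D4:**
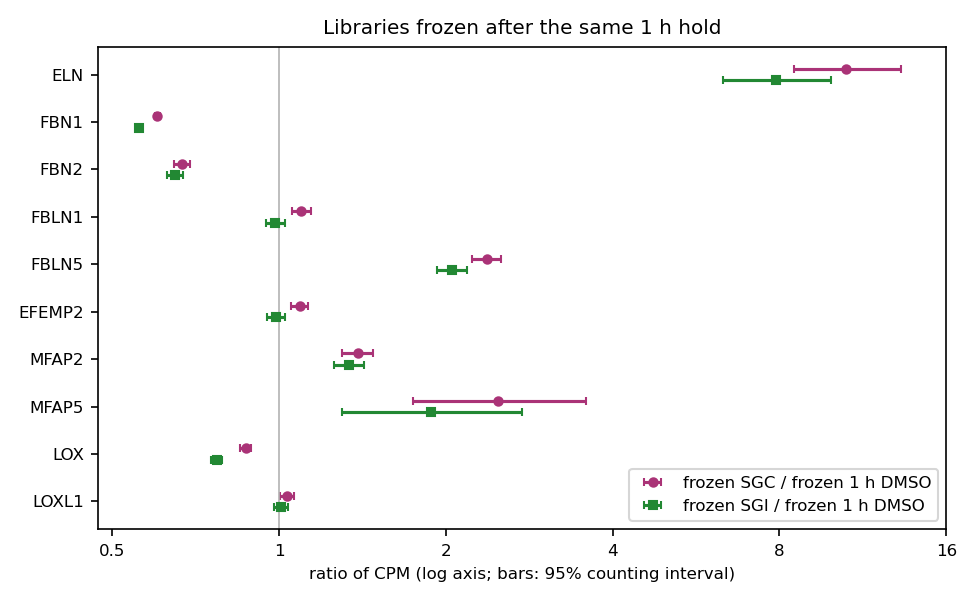
Ratio of CPM in the SGC and SGI libraries to that in the DMSO library frozen after the same hold of 1 h, on a log axis, with 95% counting intervals and 1 library per condition. ELN lies at 10.6 and 7.87, FBLN5, MFAP5 and MFAP2 lie to the right of 1 and the fibrillins and LOX to the left.

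ELN differed less between SGC and SGI than between either of them and DMSO. It was 1.34 times as high in SGC as in SGI (1.22 to 1.48), which were held equally long, and 8 of the 9 other genes were 1.03 to 1.15 times as high, MFAP5 being 1.32 times as high with an interval of 0.992 to 1.77. The intervals of FBN2 (0.992 to 1.07), MFAP2 (0.978 to 1.10) and LOXL1 (0.997 to 1.06) also held 1. The median absolute log2 ratio between these libraries over all genes tested was 0.13. SMC was held for 2 h, so its values stand beside those of SGC and SGI with the hold differing: ELN was 1.03 times as high in SMC as in SGC (0.941 to 1.13) and 1.39 times as high as in SGI (1.25 to 1.53). FBN2 was 1.21 times as high in SMC as in SGC, and FBLN5 was at 0.860 of its level in SGC.

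Holding cells for 1 h in DMSO before freezing went with more LOXL1, 1.32 times as high as without the hold (1.28 to 1.36), and with more FBLN1 and EFEMP2, at 1.21 and 1.20 times. The interval for ELN, at 1.26 times (0.922 to 1.73), held 1, as did those of MFAP5 and LOX. Here and in the pairs that follow, single libraries are compared and the intervals cover counting error only. The median absolute log2 ratio over all genes tested was 0.13.

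After a matched 1 h in DMSO, frozen cells stood at 4.32 times the ELN of unfrozen cells (2.64 to 7.41) and at 2.01 times the FBLN5 (1.84 to 2.21). MFAP2 stood at 1.56 times (1.44 to 1.68), FBLN1 at 1.44 times (1.38 to 1.51) and MFAP5 at 0.850 times, with an interval of 0.559 to 1.29. This pair shares the DMSO-frozen library on which the call of MFAP2 rested.

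In unfrozen cells, 1 h in DMSO against 1 h in medium gave an ELN ratio of 0.721 (0.382 to 1.34), so a difference in ELN was not detectable at this depth. FBN1 was 1.21 times as high with DMSO (1.20 to 1.22), FBN2 1.30 times (1.26 to 1.34) and LOX 1.14 times (1.11 to 1.16). These compare single libraries, and their intervals cover counting error only. FBLN5, at 1.03 times, had an interval of 0.928 to 1.15. The median absolute log2 ratio over all genes tested was 0.17. Between medium for 1 h and no hold, the ELN ratio was 1.23 (0.672 to 2.25), and FBN1, FBN2 and FBLN5 stood at 0.847, 0.835 and 0.844 of the level at 0 h.

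Other genes of the elastic fibre moved both ways. The lists that follow were drawn up with earlier results of these data known, so their counts are a description. Genes given by name without values, and some given with values, such as HBEGF and MYOCD, were named after their values were seen. The counts of each list stand beside these shares of all genes tested. In osmolyte-frozen cells 13.1% were called higher and 16.2% lower against DMSO-frozen cells, and 18.6% and 20.7% against fresh cells. In DMSO-frozen against fresh cells 1.22% were called higher and 0.603% lower. Of 22 tested genes for other elastic fibre and microfibril proteins, 7 rose and 3 fell in osmolyte-frozen against DMSO-frozen cells, with a median log2 fold change of −0.09. Those that fell were MFAP3, MFAP1 and THSD4. Without the DMSO-frozen library at 0 h 3 rose and 1 fell, 3 rose with only the libraries held for 1 h, and 5 fell without the fresh library at 0 h or the one held in medium. The largest fold of the 7 was in DCN, which encodes decorin, a proteoglycan that binds collagen and microfibrils. DCN rose 2.87-fold, from 52.1 ± 3.81 CPM (SD, n = 2) to 149.5 ± 33.2 CPM (SD, n = 3), at an edgeR adjusted p of 0.00780. Its call was lost without the DMSO-frozen library at 0 h (edgeR adjusted p = 0.0797) and with only the libraries held for 1 h (edgeR adjusted p = 0.0861). Against fresh cells 8 of the 22 rose and 4 fell, with DCN 3.67-fold higher (edgeR adjusted p = 0.00122). The 4 were FBLN2, MFAP1, EMILIN2 and THSD4. In DMSO-frozen against fresh cells 1 rose, EFEMP1, and 0 fell, with 0 rising without either DMSO-frozen library or without fresh cells held in DMSO and 3 without the fresh library at 0 h.

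Among 4 latent TGF-beta binding proteins, relatives of the fibrillins that store TGF-beta on microfibrils, 0 rose and 1 fell against DMSO-frozen cells by edgeR (LTBP1; 1 rose with DESeq2, and 1 at an unadjusted p under 0.05), and 2 rose (LTBP2 and LTBP4) and 1 fell (LTBP1) against fresh cells. LTBP2 rose 1.35-fold in DMSO-frozen against fresh cells (edgeR adjusted p = 0.0186), a call lost without the DMSO-frozen library held for 1 h (edgeR adjusted p = 0.325) or without the fresh library held in medium (edgeR adjusted p = 0.0552).

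Of 7 other lysyl oxidases and their helpers, 2 rose (LOXL4 and BMP1) and 2 fell (ATP7A and POSTN) against DMSO-frozen cells, with 1 falling without either DMSO-frozen library. Against fresh cells 3 rose (LOXL4, BMP1 and FKBP10) and 3 fell (LOXL3, ATP7A and POSTN), and in DMSO-frozen against fresh cells 1 rose, LOXL4. LOXL4, a further lysyl oxidase-like enzyme, stood at 30.0 ± 1.22 CPM (SD, n = 3) in fresh cells, 52.3 ± 6.27 CPM (SD, n = 2) in DMSO-frozen cells and 85.0 ± 7.22 CPM (SD, n = 3) in osmolyte-frozen cells. It rose 2.83-fold in osmolyte-frozen against fresh cells (edgeR adjusted p = 1.46e-10) and 1.74-fold in DMSO-frozen against fresh cells (edgeR adjusted p = 5.09e-05). Its order of groups was that of ELN and FBLN5 and unlike that of LOX.

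The 3 genes of the elastin receptor complex, which binds fragments of elastin at the cell surface, gave 0 calls against DMSO-frozen cells by edgeR, with 0 at an unadjusted p under 0.05 and 1 lower with limma on log2 RPKM. Against fresh cells 1 rose, NEU1, a call lost without any 1 of the 3 fresh libraries, SMC or SGC. Of 10 tested elastases and their inhibitors, 4 rose (MMP14, CTSK, CTSS and TIMP3) and 1 fell (SERPINA1) against DMSO-frozen cells, where 0 rose with only the libraries held for 1 h and 1 rose and 0 fell without the DMSO-frozen library at 0 h. Against fresh cells 6 rose and 2 fell (CTSL1 and SERPINA1). In DMSO-frozen against fresh cells 2 rose: MMP2, a gelatinase that also cuts elastin, 1.44-fold (edgeR adjusted p = 0.00227), and TIMP2, its inhibitor, 1.31-fold (edgeR adjusted p = 0.0164). MMP2 was not called without the DMSO-frozen library held for 1 h (edgeR adjusted p = 0.115), and TIMP2 was not called without that library (edgeR adjusted p = 0.232), without the one at 0 h (edgeR adjusted p = 0.108) or without fresh cells held in DMSO (edgeR adjusted p = 0.0509).

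Of 13 tested genes known to regulate elastin expression, 1 rose (TGFBR1) and 3 fell (TGFBR2, EGFR and FGF2) against DMSO-frozen cells, TGFBR1 not being called without SMC or without either DMSO-frozen library. Against fresh cells 4 rose (TGFB2, TGFB3, TGFBR1 and IGF1R) and 4 fell (TGFB1, TGFBR2, EGFR and FGF2), and in DMSO-frozen against fresh cells 2 rose. Of all genes tested, 13.1% were called higher and 16.2% lower against DMSO-frozen cells, and 18.6% and 20.7% against fresh cells. EGFR, the receptor for epidermal growth factor, fell 2.06-fold against DMSO-frozen cells (edgeR adjusted p = 1.89e-05) and 2.00-fold against fresh cells (edgeR adjusted p = 4.00e-06). Its means were 178 CPM in fresh, 183 CPM in DMSO-frozen and 88.7 CPM in osmolyte-frozen cells. HBEGF, on the same list, was not called and went the other way, at 12.6, 11.3 and 23.1 CPM in the same order. The part of the listed regulators in the ELN result was not tested. TGFB3, a ligand of the TGF-beta family, rose 1.96-fold in osmolyte-frozen (edgeR adjusted p = 1.98e-06) and 1.66-fold in DMSO-frozen cells (edgeR adjusted p = 0.00238) against fresh cells. The receptor gene TGFBR1 rose 1.43-fold in DMSO-frozen against fresh cells (edgeR adjusted p = 0.00504). In DMSO-frozen against fresh cells, neither was called without the DMSO-frozen library held for 1 h (edgeR adjusted p = 0.0738 for TGFB3 and 0.0669 for TGFBR1), nor was TGFBR1 without the one at 0 h (edgeR adjusted p = 0.0850).

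Most of the listed markers of smooth muscle, a cell type that makes much elastin in arteries, were higher in osmolyte-frozen cells, but MYOCD and DES were not. Of 10 such genes, 8 rose and 0 fell in osmolyte-frozen cells against DMSO-frozen and against fresh cells, and 3 rose in DMSO-frozen against fresh cells. Of all genes tested, 13.1%, 18.6% and 1.22% were called higher in these 3 comparisons. Their summed level was 1903 to 2021 CPM in fresh cells, 2298 to 2314 CPM in DMSO-frozen cells and 3673 to 4081 CPM in osmolyte-frozen cells, and none was at 0 in any library. The actin genes ACTG2 and ACTA2 were 2.65-fold and 2.62-fold higher than in DMSO-frozen cells, and CNN1, which encodes calponin, was 2.14-fold higher. Against fresh cells these 3 were 4.24-fold, 3.61-fold and 2.89-fold higher, and in DMSO-frozen against fresh cells they were 1.60-fold, 1.38-fold and 1.35-fold higher. In that last comparison ACTA2 was not called without either of the DMSO-frozen libraries (edgeR adjusted p = 0.0724 and 0.0583), nor CNN1 without the one held for 1 h (edgeR adjusted p = 0.152). The defining markers of mature muscle were low: MYH11 averaged 1.57, 1.72 and 2.71 CPM and DES 0.308, 0.269 and 0.139 CPM in fresh, DMSO-frozen and osmolyte-frozen cells. MYOCD averaged 3.88, 3.82 and 3.46 CPM in the same order. Stromal cells also express the actin and calponin genes. The part of these genes in the ELN result was not tested.

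Of 8 stromal cell markers, 6 fell and 1 rose in osmolyte-frozen against DMSO-frozen cells, and 7 fell and 1 rose against fresh cells, with 0 rising and 2 falling, ENG and ANPEP, in DMSO-frozen against fresh cells. The gene that rose was THY1, a call lost in both comparisons without SMC, SGC, the fresh library at 0 h or the fresh library held in DMSO. Their summed level was 5274 to 6159 CPM in osmolyte-frozen cells, below 8346 to 8452 CPM in DMSO-frozen and 7321 to 8301 CPM in fresh cells. Most of that sum was the integrin gene ITGB1, which averaged 4067, 5985 and 5240 CPM in the same order of groups. ANPEP, which encodes the surface peptidase CD13, was 1.98-fold lower than in DMSO-frozen and 2.70-fold lower than in fresh cells, and CD44, the hyaluronan receptor, was 1.79-fold and 2.07-fold lower. ANPEP was also 1.36-fold lower in DMSO-frozen than in fresh cells, a call lost without either DMSO-frozen library (edgeR adjusted p = 0.0839 and 0.117). The defining marker NT5E stood at 239, 257 and 166 CPM in fresh, DMSO-frozen and osmolyte-frozen cells.

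For other cell types, the marker lists gave the following. Of 2 tested haematopoietic markers 0 were called in any comparison by edgeR, DESeq2 or limma, with 0 at an unadjusted p under 0.05, and PTPRC reached at most 0.174 CPM. The 6 endothelial markers summed to 35.9 to 54.6 CPM, with 1 falling against DMSO-frozen cells, TEK, and 1 rising, CDH5, and 1 falling, VWF, against fresh cells. Without SGC or without SGI the calls of TEK and VWF were lost, as was TEK without either DMSO-frozen library and VWF without fresh cells held in DMSO. Of 6 tested chondrocyte markers, which summed to 51.2 to 75.8 CPM, 1 rose against DMSO-frozen cells, COL11A2, 2.02-fold, to 7.36 CPM. It was 2.29-fold higher than in fresh cells, where 1 other marker, SOX9, fell, though 0 fell without SGC. Pluripotent cell markers summed to 35.2 to 42.1 CPM in osmolyte-frozen cells and 28.1 to 31.1 CPM in the other libraries, with 3 of 8 tested rising against DMSO-frozen cells (POU5F1, DPPA4 and ESRG) and 4 against fresh cells (POU5F1, NANOG, ZFP42 and DPPA4), beside 13.1% and 18.6% of all genes tested. Against DMSO-frozen cells 1 rose without the DMSO-frozen library held for 1 h and 5 without SMC. Against fresh cells 1 rose without fresh cells held in DMSO and 2 without SGC or without SGI. Levels were low: in osmolyte-frozen cells ESRG averaged 12.4 CPM, POU5F1 4.80, DPPA4 3.90, NANOG 1.45 and ZFP42 1.10 CPM. SOX2, on the same list, averaged 0.0163 CPM there. The part of these genes in the ELN result was not tested either. The nuclear RNAs MALAT1 and NEAT1 were 2.05-fold and 1.92-fold higher in osmolyte-frozen than in DMSO-frozen cells, NEAT1 losing its call without either DMSO-frozen library (edgeR adjusted p = 0.0871 and 0.0657).

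The genes whose levels followed ELN most closely were ranked by Pearson correlation of log2 CPM over the 8 libraries, among 1217 genes whose log2 CPM spanned at least 2. All points share the same libraries, and the 3 osmolyte-frozen libraries stand apart in each, so the values are a description. They were FAM84B with r of 0.996, BMP4 with 0.994, SULF2 with 0.993, IL32 with 0.993 and LOC148145 with 0.993. SULF2, which trims sulphates from heparan sulphate chains outside the cell, stood at 46.4, 76.3 and 223 CPM in fresh, DMSO-frozen and osmolyte-frozen cells. BMP4, a growth factor of the TGF-beta superfamily, stood at 1.83, 3.84 and 13.6 CPM, FAM84B at 2.71, 5.45 and 17.3 CPM and IL32, which encodes a cytokine, at 4.79, 7.88 and 21.5 CPM. LOC148145 was near the limit of counting, listed at 0 in the fresh libraries and at 0.577 CPM in osmolyte-frozen cells. Of the partners of ELN, FBLN5 followed it most closely, with r of 0.99, and then MFAP2 with 0.98, while LOX, at −0.83, FBN2, at −0.78, and FBN1, at −0.74, ran the other way. ELN spanned 5.49 on the log2 scale across the libraries, FBLN5 2.30 and MFAP2 1.11, so the genes that shared its order did not share its size.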

How the data were processed

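Total RNA was sequenced in 8 libraries, with 1 library per condition. A miRNeasy kit was used for RNA, per the labels' protocols. CASAVA 1.9, TopHat 12.0.6, HTSeq and the build hg19 appear in the submitters' processing notes. Neither annotation nor strand setting is given in the sources used here.

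In the deposited table each gene has a whole-number count and an RPKM value per gene and library, per the file headers. Counts are as the authors deposited them, with no normalisation. RPKM values were computed by the authors with a deposited gene length, which also gave CPM per kilobase here. Every count is even, with 0 odd values, and no source says why. Counting intervals therefore use the count divided by 2. Of 23398 entries, repeats of identical counts were dropped, which left 23354 genes. No library repeated another: chi-square per degree of freedom between libraries was 6.47 to 73.1.

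The test was that of edgeR 4.0.16, run in R 4.3.3, with filterByExpr by group, scaling by trimmed mean of M-values (TMM), glmQLFit with robust estimation and glmQLFTest, fitting all 3 groups at once (5 residual degrees of freedom). P-values were adjusted by Benjamini-Hochberg over 15924 genes, with a threshold of 0.05. The biological coefficient of variation was 0.0974. The fit was tested on simulated data. The SE was taken as the size of the log2 fold change over the square root of its F statistic. Pairs of single libraries are ratios with conditional binomial 95% intervals.

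The genes and the 14 lists were chosen with earlier results of these data known. Tests of ELN and of FBN1, whose values were known in the choice, are therefore not used. Genes of the lists are named where they passed the threshold, did not overlap between groups and averaged at least 5 CPM on the higher side, up to 10 per comparison by fold. NT5E, MYH11, DES and PTPRC were added as defining markers. Other genes of the lists, among them HBEGF and MYOCD, fall outside that rule and were named after their values were seen. Alternatives were DESeq2 1.42.0, limma 3.58.1 on log2 RPKM, other scaling, filters and subsets, and leaving out each library in turn.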

Additional observations from a re-analysis of the deposited data

How the results depend on the processing

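Of 480 values of the 10 genes under 16 alternative settings, 438 kept their direction and their side of the threshold. ELN in the osmolyte comparisons was scored instead as moved by less than the spread. ELN in DMSO-frozen against fresh cells, and FBN1, were scored by the threshold, so the 438 include tests not used above. Among all values, 0 called values changed sign, 14 were lost as calls and 15 became calls. The remaining 13 were ELN on the log2 RPKM scale and genes not called in DMSO-frozen against fresh cells, whose small fold changes crossed 0. ELN and FBN1 are left out of the counts of member genes that follow. In osmolyte-frozen against DMSO-frozen cells 3 genes rose in the fit reported, and 6 with library totals alone in place of TMM. FBLN5, MFAP2 and MFAP5 rose with any 1 fresh or osmolyte-frozen library left out, and FBLN1 joined them without SGI. FBN2 fell in each of these fits, joined in some by LOX. In osmolyte-frozen against fresh cells 5 to 6 rose in these fits and FBN2 fell, while the call of LOX was lost in some. In DMSO-frozen against fresh cells FBLN5 rose in each and 0 fell, while the call of MFAP2 was lost without fresh cells held in DMSO. With library totals alone FBLN1, EFEMP2 and LOXL1 joined the calls against DMSO-frozen cells, at edgeR adjusted p-values of 0.0186, 0.0185 and 0.0371, and LOX passed with DESeq2 at an adjusted p of 0.0211. MFAP2 was not called in DMSO-frozen against fresh cells when only these groups were fitted (edgeR adjusted p = 0.0634). The log2 fold change of ELN was 3.21 to 3.62 against DMSO-frozen cells in the count fits, 3.18 with log2(RPKM + 0.1) and 2.67 with log2(RPKM + 0.5), and against fresh cells 5.07 to 5.31, 4.58 and 3.45. Over all genes, 44.8% of calls in osmolyte-frozen against DMSO-frozen cells were higher, 56.4% with library totals alone and 27.9% or 27.3% with log2 RPKM. In the same comparison 2091 genes were higher and 2579 lower, against 780 and 1342 without the DMSO-frozen library at 0 h and 993 and 1395 with only the libraries held for 1 h, and the number higher was 1260 or 1225 with log2 RPKM, 1391 without SGC and 1383 without the DMSO-frozen library held for 1 h. In DMSO-frozen against fresh cells 194 were higher and 96 lower, against 63 and 36 without the DMSO-frozen library held for 1 h, 86 and 20 without that at 0 h, 148 and 34 with only the libraries held for 1 h, 320 and 156 with DESeq2, 295 and 126 with no filter, and 110 and 35 or 111 and 28 with log2 RPKM. The cause was not tested. No paired analysis was possible because the labels give the libraries no shared replicate numbers. The fresh counts of ELN, 40 to 52, limit its folds against fresh cells, and 2 DMSO-frozen libraries limit both comparisons that use them.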
